A study of Homo sapiens with 4 samples.

Results

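The lipoxygenase genes and the gene of their activating protein were examined for histone H3 trimethylated at lysine 27 (H3K27me3) in HaCaT keratinocytes. They were represented by 5 windows of the human genome build hg19 that together span 430 kb and hold 7 genes. The windows cover ALOX5 on chromosome 10, ALOX5AP on chromosome 13, and on chromosome 17 ALOX12, ALOX15 and the neighbouring trio ALOX15B, ALOX12B and ALOXE3. The members are the deposited peaks that overlap a window by at least 1 bp. They came to 8 of the 13155 peaks in the AKBA list and 6 of the 8890 peaks in the DMSO list. The windows were chosen by gene and not by any measured value, although the members and lists were chosen with earlier results of these data known.

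Lipoxygenases are iron-containing enzymes that add oxygen to polyunsaturated fatty acids such as arachidonic acid. ALOX5, together with its membrane helper ALOX5AP (also called FLAP), makes the precursor of the leukotrienes, lipid mediators of inflammation that are produced mainly by leukocytes. Boswellic acids, to which AKBA is usually counted, are known inhibitors of the ALOX5 enzyme. ALOX12B and ALOXE3 act one after the other on ceramides of the epidermis, and mutations in either gene cause congenital ichthyosis. ALOX15B, their neighbour, oxygenates arachidonic acid and is found in hair roots, skin and prostate. H3K27me3 is laid down by Polycomb repressive complex PRC2, often marks silenced genes, and in many cell types favours CpG-rich promoters.

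HaCaT cells are spontaneously immortalised human keratinocytes from skin. They were cultured for 12 hours in medium with AKBA or in medium with the solvent DMSO, and the labels give no other agent and no dose. Of the 4 samples, 2 are H3K27me3 libraries, 1 per condition, each with a peak list, and 2 are input DNA and were not analysed here. With 1 library per condition, no difference could be set against a spread between replicates, and no test of the treatment was made. Peak lists hold no read numbers, so the depth is unknown, and they hold no expression values against which the cell line could be checked. A window without a peak can hold the mark at a level under the calling threshold. A peak does not tell a mark in all cells apart from a mark in a fraction of them.

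The promoter sequences at hand show how unlike these genes are at their starts, and they are given here because H3K27me3 often goes with CpG content. RefSeq promoter sequences (build GRCh38.p14, used for sequence only) were present for ALOX5AP, ALOX12, ALOX12B and ALOXE3 in the table used here, and those of ALOX5, ALOX15 and ALOX15B were not analysed here. Each run is the 250 bases before the gene start, 5′ to 3′ on the gene's strand, with every CG dinucleotide in capitals. The positions in GRCh38.p14 are chr13:30713235-30713484 on the plus strand for ALOX5AP and chr17:6995799-6996048 on the plus strand for ALOX12. They are chr17:8087717-8087966 on the minus strand for ALOX12B and chr17:8118917-8119166 on the minus strand for the first of 3 ALOXE3 starts.
ALOX5AP: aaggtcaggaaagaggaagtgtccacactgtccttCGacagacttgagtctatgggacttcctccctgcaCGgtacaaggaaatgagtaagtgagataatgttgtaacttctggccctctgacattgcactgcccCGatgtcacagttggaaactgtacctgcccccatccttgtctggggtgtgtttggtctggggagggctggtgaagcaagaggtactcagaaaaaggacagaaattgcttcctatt
ALOX12: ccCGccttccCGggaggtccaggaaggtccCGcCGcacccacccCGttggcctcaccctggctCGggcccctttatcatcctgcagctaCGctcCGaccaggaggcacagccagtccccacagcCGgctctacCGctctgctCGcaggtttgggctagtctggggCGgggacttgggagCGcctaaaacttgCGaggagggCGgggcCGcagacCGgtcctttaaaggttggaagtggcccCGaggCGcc
ALOX12B: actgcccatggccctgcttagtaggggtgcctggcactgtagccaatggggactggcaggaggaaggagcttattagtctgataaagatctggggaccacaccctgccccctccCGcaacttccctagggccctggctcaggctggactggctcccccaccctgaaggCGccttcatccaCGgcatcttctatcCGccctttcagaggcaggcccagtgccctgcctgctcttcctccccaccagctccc
ALOXE3: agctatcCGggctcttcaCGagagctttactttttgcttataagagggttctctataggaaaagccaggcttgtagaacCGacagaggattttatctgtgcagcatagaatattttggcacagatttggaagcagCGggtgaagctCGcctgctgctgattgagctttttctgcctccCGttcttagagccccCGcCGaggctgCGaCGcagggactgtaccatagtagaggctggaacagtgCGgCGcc

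The ALOX12 stretch held 19 CG dinucleotides and the first ALOXE3 stretch 12, against 3 in the ALOX5AP stretch and 4 in the ALOX12B stretch. The CpG ratio is the number of CG dinucleotides over the number expected from the C and G content. It was 0.65 for ALOX12 and 0.72 for ALOXE3, and 0.20 for ALOX5AP and 0.17 for ALOX12B. The median over 35114 promoter sequences was 0.56. A ratio of at least 0.6 with a GC share of at least 50% was met by ALOX12 and by the first ALOXE3 start. That is 2 of the 4 genes, against 45.0% of all promoter sequences, where a gene can count with several starts. The other ALOXE3 starts had ratios of 0.58 and 0.41. The motif searched was CG, which reads the same on both strands, and 93.9% of all promoter sequences held it at least 1 time.

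**Figure D1:**
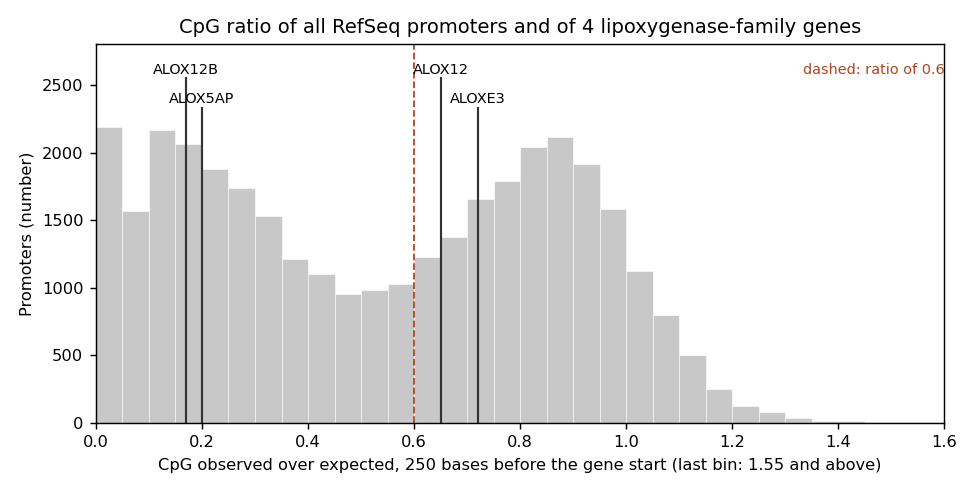
Number of RefSeq promoter sequences (vertical axis) by CpG ratio of the 250 bases before the gene start (horizontal axis), with lines for ALOX12B, ALOX5AP, ALOX12 and the first ALOXE3 start and a dashed line at a ratio of 0.6. ALOX12B and ALOX5AP, at 0.17 and 0.20, stand in the CpG-poor hump, and ALOX12 and ALOXE3, at 0.65 and 0.72, lie above the dashed line.

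The first question was whether the ALOX5 locus, whose enzyme product boswellic acids inhibit, carried the mark with and without AKBA. Its window, chr10:45850001-45962000, held 3 peaks in the AKBA list, against 3 in the DMSO list. AKBA peaks covered 3978 bp of it and DMSO peaks 2509 bp, which is 3.55% and 2.24% of the 112 kb. When the chromosomes were cut into consecutive tiles of that length, 22.1% of 26118 tiles held an AKBA peak and 16.9% a DMSO peak. At least 3 peaks were found in 6.24% of the tiles in the AKBA list, against 3.76% in the DMSO list. Fewer covered bases than in the ALOX5 window were found in 96.1% of tiles in the AKBA list, against 96.6% in the DMSO list. Most tiles held no peak, and among tiles with at least 1 peak these shares were 82.3% and 79.6%.

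The strongest-scoring ALOX5 peak was almost the same interval in both lists. It ran from 45868664 to 45870196 in the AKBA list (1533 bp) and from 45868723 to 45870212 in the DMSO list (1490 bp). The pair had 1474 bp in common, which was 96.2% of the AKBA peak and 98.9% of the DMSO peak, and the starts were 59 bp and the ends 16 bp apart. Its score, a value per peak by the authors on a scale that the files do not state, was 3.78 for the AKBA peak and 3.18 for the DMSO peak, given side by side and not as a difference. These scores exceeded those of 73.0% of AKBA peaks and 56.5% of DMSO peaks. Percentiles from lists of different length show no change between conditions. From general knowledge of hg19 rather than the files, this interval spans the start of ALOX5 and the other peaks of the window lie within the gene.

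Farther along ALOX5 the lists differed in how the marked stretch was cut. The AKBA list had a peak of 1411 bp from 45923250 to 45924660 with a score of 3.19. The DMSO list had 2 peaks there, of 322 bp from 45923050 to 45923371 and of 697 bp from 45924145 to 45924841, with scores of 2.24 and 2.63. The AKBA peak thus overlapped both DMSO peaks. Of all 13155 AKBA peaks, 4230 overlapped at least 1 DMSO peak, and 583 of these, or 4.43% of the whole list, overlapped more than 1. The gap between the DMSO peaks was 773 bp, whereas no gap in the whole AKBA list was below 857 bp and the smallest DMSO gap was 641 bp. The part of these list-wide joining distances in the merged AKBA peak was not tested. The narrower DMSO peak was low in its list, above 30.2% of peaks by width and 5.73% by score.

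A further ALOX5 peak was called in the AKBA list alone. It ran from 45914070 to 45915103, spanned 1034 bp and had a score of 2.77, above 39.9% of AKBA peaks. The nearest DMSO peak was 7.95 kb away and was the 322 bp peak described above. Outside the window the nearest peaks lay 63.5 kb below and 134 kb above it in the AKBA list, and 474 kb below and 2550 kb above it in the DMSO list. The median gap between neighbouring peaks was 27.3 kb over the whole AKBA list and 40.2 kb over the whole DMSO list. Unsequenced stretches count in these distances and gaps, and their part in them was not examined. Within 1 Mb of the window there were 12 AKBA peaks and 8 DMSO peaks, the window included.

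**Figure D2:**
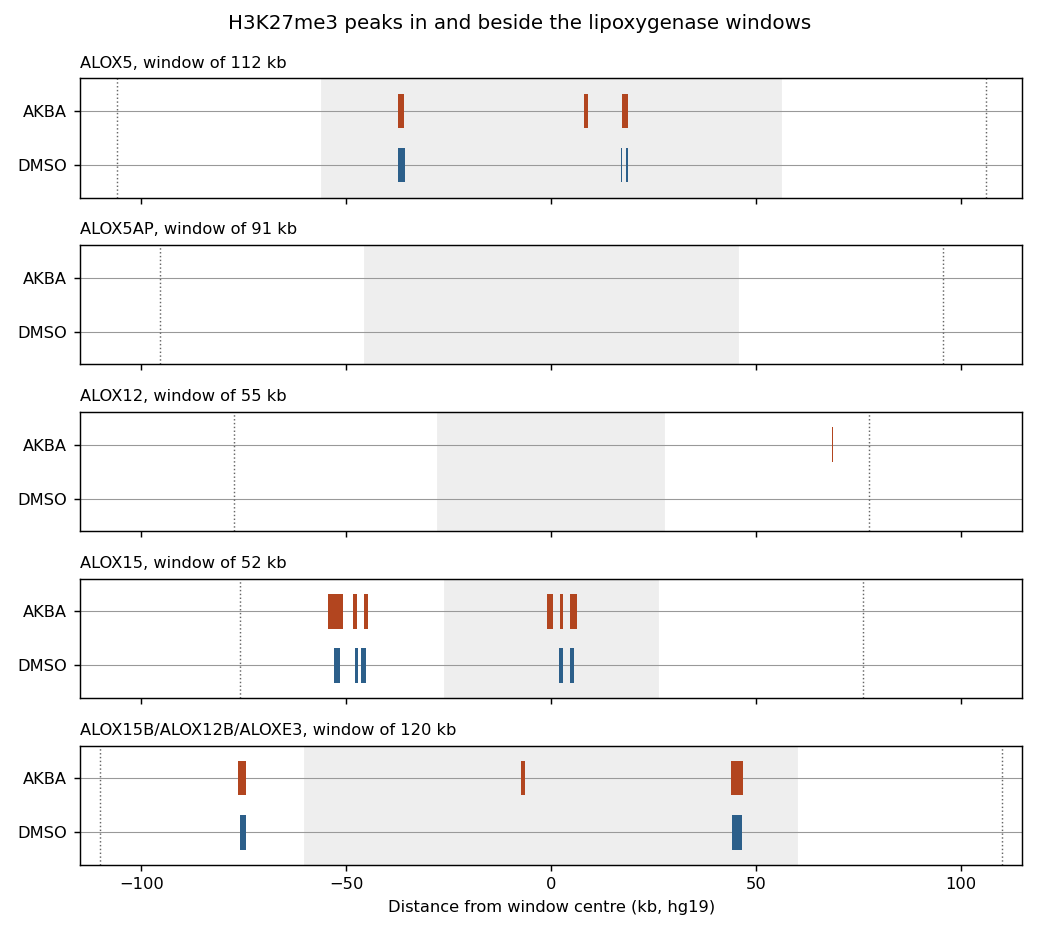
Peaks of the AKBA list (upper line of each panel) and of the DMSO list (lower line) by distance from the window centre in kb, with the windows shaded and dotted lines 50 kb beyond each edge, up to which peaks are drawn. Bar lengths are peak widths to scale. The ALOX5AP and ALOX12 windows are empty in both lists, and the AKBA list has 1 more peak than the DMSO list at ALOX15 and at the ALOX15B, ALOX12B and ALOXE3 window.

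ALOX5AP, the partner protein of ALOX5, had no peak in its window, chr13:31268001-31359000, in either list. An empty window of that length was the usual case, since 19.4% of 91 kb tiles held an AKBA peak and 14.6% a DMSO peak. The nearest AKBA peaks lay 1300 kb below the window, from 29968810 to 29969656, and 121 kb above it, from 31479947 to 31481200. The upper of these overlapped a DMSO peak. The nearest DMSO peaks lay 1420 kb below, from 29844473 to 29845059, and 115 kb above, from 31473858 to 31475351. The window lay in a stretch without peaks of either list that measured 1500 kb. It was longer than 97.7% of the 17085 gaps between peaks of the combined lists, whose median was 18.4 kb. A gap that holds an empty 91 kb window must be longer than 91 kb, so this rank is partly set by the window being empty. ALOX5 and ALOX5AP thus differed in the presence of called peaks in the same way in both lists.

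ALOX12, which makes a hydroperoxy acid from arachidonic acid in platelets and skin, also had no peak in its window, chr17:6879001-6934000, in either list. Tiles of 55 kb held an AKBA peak in 13.8% of cases and a DMSO peak in 10.0%, and on chromosome 17 alone in 23.7% and 18.6%. The nearest AKBA peaks lay 143 kb below and 41.1 kb above the window. The upper one, from 6975074 to 6975369, was 296 bp wide with a score of 2.13. The nearest DMSO peaks lay 139 kb below and 64.5 kb above the window. The upper DMSO peak, from 6998542 to 6998878, was 337 bp wide with a score of 2.59. None of these 4 peaks overlapped a peak of the other list. The stretch without peaks of either list measured 235 kb and was longer than 84.6% of the gaps. This rank is likewise partly set by the window being empty, since the stretch must be longer than 55 kb. The surroundings of the window were otherwise marked, with 21 AKBA and 12 DMSO peaks within 1 Mb.

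ALOX15, whose enzyme oxygenates fatty acids within membranes and is induced in some cell types by interleukins IL-4 and IL-13, had the highest-scoring peak of the windows in each list. Its window, chr17:4514001-4566000, held 3 peaks in the AKBA list, against 2 in the DMSO list. AKBA peaks covered 3987 bp and DMSO peaks 1895 bp, or 7.67% and 3.64% of the 52 kb. Tiles of that length held at least 1 peak in 13.3% of cases in the AKBA list, against 9.54% in the DMSO list. At least 3 AKBA peaks were found in 2.53% of tiles and at least 2 DMSO peaks in 3.44%. On chromosome 17, which was more densely marked, these shares were 6.04% and 7.19%.

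The top ALOX15 peak ran from 4544604 to 4546392 in the AKBA list, with a score of 6.95, and from 4544499 to 4545559 in the DMSO list, with a score of 5.62. It outscored 97.4% of AKBA peaks and 97.2% of DMSO peaks. The starts were 105 bp apart, but the AKBA peak ended 833 bp farther on, so it measured 1789 bp against 1061 bp in the DMSO list. The neighbouring peak, from 4542131 to 4542986 in the AKBA list and from 4541965 to 4542798 in the DMSO list, had nearly the same width, at 856 and 834 bp. Its scores were 4.90 for the AKBA peak and 4.41 for the DMSO peak, above 88.6% and 88.1% of peaks. The third AKBA peak, from 4538986 to 4540327, was 1342 bp wide, scored 2.51 and had no DMSO peak nearer than 1.64 kb. In hg19, as generally known and not read from the files, the top peak spans the start of ALOX15, which is read toward lower coordinates, and the other peaks lie within the gene.

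A second marked group lay just outside the ALOX15 window on its lower side. The AKBA list had 3 peaks there, 18.8 to 24.9 kb from the edge, with widths of 774, 860 and 3662 bp and scores of 4.74, 2.39 and 4.0. The DMSO list had 3 peaks 19.1 to 25.5 kb from the edge, with widths of 1416, 676 and 1417 bp and scores of 3.10, 2.45 and 4.67. Inside the window no peak came nearer to an edge than 19.6 kb in the AKBA list, against 20.4 kb in the DMSO list. The nearest protein-coding genes on either side of ALOX15 in the RefSeq gene table (assembly GRCh38.p14, used for gene order only) are SMTNL2 and PELP1.

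The epidermal trio ALOX15B, ALOX12B and ALOXE3 shared a window of 120 kb, chr17:7922001-8042000, with 2 peaks in the AKBA list, against 1 in the DMSO list. AKBA peaks covered 3813 bp and DMSO peaks 2505 bp, or 3.18% and 2.09% of the window. Of 120 kb tiles, 23.1% held at least 1 AKBA peak, 11.4% at least 2, and 17.8% at least 1 DMSO peak. On chromosome 17 alone, 37.8% of tiles held an AKBA peak and 30.2% a DMSO peak, so the presence of a peak there was less unusual than in the genome as a whole.

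The wide peak of this window was common to both lists. It ran from 8025925 to 8028701 in the AKBA list (2777 bp) and from 8026052 to 8028556 in the DMSO list (2505 bp), and the AKBA peak contained the whole DMSO peak. It reached 127 bp farther at the lower end and 145 bp farther at the upper end. The score was 5.37 in the AKBA list, above 92.0% of its peaks, and 3.08 in the DMSO list, above 52.6%, percentiles that again come from lists of different length. The peak lay 13.3 kb inside the upper edge of the window in the AKBA list, at the side of ALOXE3. The next gene after ALOXE3 in the RefSeq gene table is HES7, a transcriptional repressor of the segmentation clock. As far as general knowledge of hg19 goes, without support in the files, the peak lies beyond the start of ALOXE3, at HES7.

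The other peak of the trio was called in the AKBA list alone. It ran from 7974661 to 7975696, measured 1036 bp and had a score of 2.59, above 29.8% of AKBA peaks. The nearest DMSO peak was the wide peak, 50.4 kb away. In hg19, again from general knowledge alone, it lies between ALOX15B and ALOX12B. Apart from it, no peak of either list overlapped the 104 kb between the lower window edge and the wide peak. The nearest peak below the window, 14.4 kb outside it in the AKBA list, against 14.5 kb in the DMSO list, was again common to both, with widths of 2084 and 1542 bp.

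Across the 5 windows the same 3 were marked in both lists and the same 2 were empty. A peak in a window need not lie on its genes. At the trio, the general knowledge used above places the common peak at HES7 and the AKBA-only peak between ALOX15B and ALOX12B. AKBA peaks covered 11778 bp and DMSO peaks 6909 bp, a ratio of 1.70, against 1.94 for the whole lists. The mean width was 1472 bp for the 8 AKBA members and 1152 bp for the 6 DMSO members, and the mean score was 4.01 and 3.53. With the same number of highest-scoring peaks from each list, 8890, the members came to 6 for AKBA and 6 for DMSO, and each window held as many AKBA as DMSO peaks. As deposited, covered bases were higher in the AKBA list in each of the 3 marked windows, by 1.59 times at ALOX5, 2.10 times at ALOX15 and 1.52 times at the trio. These ratios lay on either side of the 1.94 of the whole lists.

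**Figure D3:**
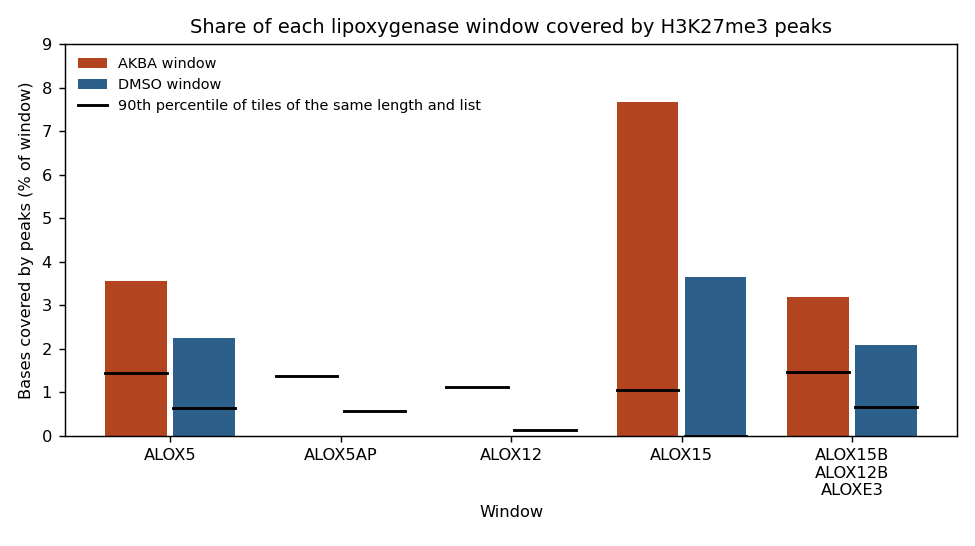
Percent of each window covered by peaks, with the AKBA bar left of the DMSO bar, and a black line at the 90th percentile of all tiles of the same length in that list. The line lies low because most tiles hold no peak, and for the DMSO list at ALOX15 it is at 0. There are no replicates and so no error bars. ALOX15 has the highest bars, at 7.67% in the AKBA list, against 3.64% in the DMSO list, and ALOX5AP and ALOX12 are at 0.

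All 6 DMSO members overlapped an AKBA peak, whereas 54.5% of all DMSO peaks did. Of the 8 AKBA members 5 overlapped a DMSO peak, against 32.2% of all AKBA peaks. The 3 AKBA members without a DMSO overlap, 1 in each marked window, had the lowest scores of the 8, from 2.51 to 2.77. The 5 others had scores from 3.19 to 6.95. Scores of all AKBA peaks with and without a DMSO overlap are not given here, so this need not be particular to these windows. A score of at least 3 was reached by 5 of 8 AKBA members and 4 of 6 DMSO members, against 49.6% and 50.8% of the whole lists. The members were wide for their lists, and 7 of 8 AKBA members, the 3 without a DMSO overlap included, and 3 of 6 DMSO members were at least 1 kb wide, against 34.3% of AKBA peaks and 25.2% of DMSO peaks. The median width was 1376.5 bp for the AKBA members and 947.5 bp for the DMSO members, with 742 and 552.5 bp for the whole lists.

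**Figure D4:**
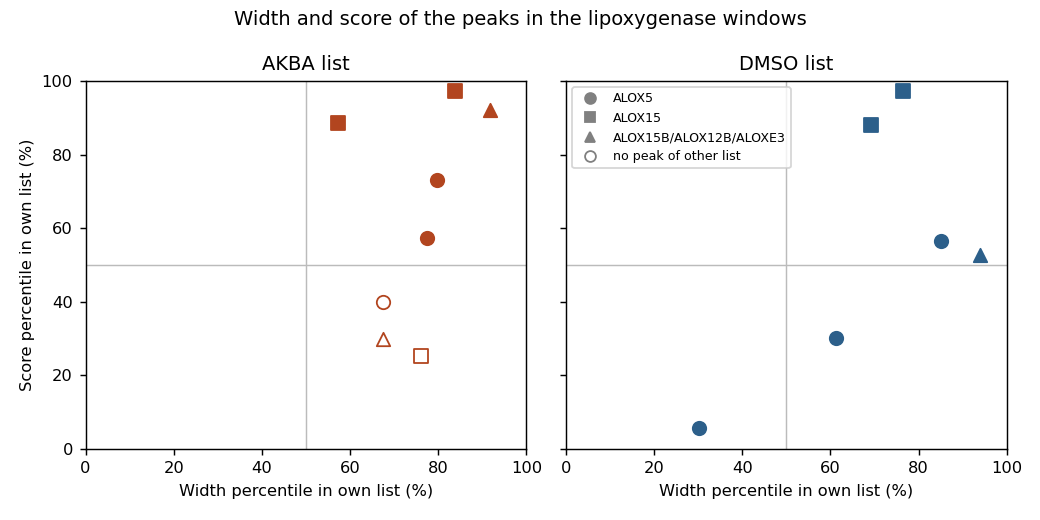
Percentile of score (vertical axis) and of width (horizontal axis) of each member peak within its own list, with the AKBA list on the left and the DMSO list on the right, symbols for the windows, open symbols for peaks without an overlap in the other list and grey lines at the 50th percentile. The 3 open symbols, all in the AKBA panel, are the lowest of the 8 AKBA members by score, at 25.2, 29.8 and 39.9%. Where AKBA peaks without an overlap stand in the whole list is not shown. Both ALOX15 peaks with an overlap stand at 88.1% or above in each panel.

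Of the overlaps, 4 were one to one, the ALOX5 start, the ALOX15 pair of peaks and the wide peak beside ALOXE3. The AKBA peak was wider in 4 of 4, by 43, 22, 728 and 272 bp, against 73.1% of the 3510 one-to-one pairs of the whole lists. The median excess was 157.5 bp in the 4 pairs and 404 bp in all pairs. No AKBA peak anywhere was narrower than 214 bp and no DMSO peak narrower than 160 bp. Differences of 43 and 22 bp are smaller than this difference between the lists' narrowest widths, and its part in them was not tested.

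The empty windows included a promoter somewhat above the minimum CpG ratio of 0.6 and a CpG-poor one, ALOX12 with a ratio of 0.65 and ALOX5AP with 0.20. These ratios were above those of 56.1% and 22.4% of all promoter sequences. Whether CpG content goes with the presence of a peak was not tested. For the other genes on the pathway list, which concern leukotriene and prostaglandin synthesis, leukotriene receptors, reduction of lipid peroxides and the epidermal lipid barrier, the position in hg19 was not used here, so their peaks were not analysed. Of these 19 genes 18 had a promoter sequence. Of the 18, 4 met the CpG minimum at their first start, namely LTA4H, GPX4, CYP4F22 and CERS3. Over all promoter sequences the share was 45.0%, but there a gene can count with several starts. LTA4H, which turns the ALOX5 product into leukotriene B4, had a ratio of 0.85, and the leukotriene receptor genes CYSLTR1 and CYSLTR2 had ratios of 0.27 and 0.11. The median of the 18 was 0.27.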

How the data were processed

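H3K27me3 chromatin immunoprecipitation and sequencing of HaCaT cells gave 1 peak list for the AKBA and 1 for the DMSO library. Per the submitters' processing notes the build was hg19 and the tools BWA, STAR and MACS2. For the use of the input DNA, the threshold and the filters nothing is stated in the labels. The lists give positions and 1 score per peak. The score that the authors deposited has no stated scale and was used to rank and filter peaks. Scores of both lists are given side by side and were not subtracted or divided. A common minimum of 3 assumes the same scale in both.

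The windows were read from a rule in kb and counted from 1 in bp. Overlap means at least 1 bp, checked against bedtools 2.31.1 and tested on simulated data. Tiles ran from the first to the last peak of both lists on each of 23 chromosomes, unsequenced stretches included. Promoter composition came from RefSeq sequences of GRCh38.p14. No coordinate was converted between builds. Python 3.11.15, numpy 2.4.6, pandas 2.3.3, scipy 1.17.1 and matplotlib 3.10.9 were used. With 1 library per condition no test was run. All 7 genes and every peak in their windows are named, or the nearest peaks where there is none. The members and lists were chosen with earlier results of these data known. The alternatives were wider windows, a stricter score, equal list sizes, a minimum width, joined peaks, other overlaps and other tiles.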

Additional observations from a re-analysis of the deposited data

How the results depend on the processing

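The ALOX5, ALOX15 and trio windows held peaks, and more AKBA than DMSO bases, under every alternative run. As deposited, the whole AKBA list covered 1.94 times the DMSO bases, and whole-list ratios under the alternatives are not given here. The ALOX5AP and ALOX12 windows were empty in both lists under each alternative except 1. Only wider windows could have brought peaks into them. The filters only remove peaks, and the nearest peak, 41.1 kb away, was too far for joining across 5 kb. Widening the windows by 50 kb brought 1 AKBA peak to ALOX12. Covered bases, 11778 bp for AKBA and 6909 bp for DMSO as deposited, were 8366 bp for AKBA and 5890 bp for DMSO with a score of at least 3. They were 10922 bp for AKBA and 5056 bp for DMSO with a width of at least 1 kb, and 15198 bp for AKBA and 9382 bp for DMSO with peaks joined across 5 kb. Windows widened by 20 kb gave 14636 bp for AKBA and 9374 bp for DMSO, and by 50 kb 19454 bp for AKBA and 11960 bp for DMSO. With the 8890 highest-scoring peaks of each list the AKBA value was 9400 bp, and the DMSO list is complete there. Member peaks, 8 for AKBA and 6 for DMSO as deposited, were 13 for AKBA and 10 for DMSO with windows widened by 50 kb. The stricter score left 5 AKBA and 4 DMSO peaks, and the minimum width 7 AKBA and 3 DMSO peaks. At equal list sizes the members were 6 for AKBA and 6 for DMSO, and the extra AKBA peaks at ALOX15 and at the trio were gone. Under 50% reciprocal overlap 4 of 8 AKBA and 4 of 6 DMSO members were shared. The share of all peaks under that rule is not given here. The shares of 32.2% of all AKBA and 54.5% of all DMSO peaks are for an overlap of 1 bp. Tiles of the window's own chromosome held an AKBA peak in 27.4% and a DMSO peak in 20.2% of cases at the length of the ALOX5 window. The AKBA and DMSO shares were 18.4% and 13.2% for ALOX5AP, 23.7% and 18.6% for ALOX12, 22.9% and 17.9% for ALOX15, and 37.8% and 30.2% for the trio. No paired analysis was possible because each condition had 1 H3K27me3 library. Unknown depth limits every comparison, the empty windows included.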
